A study of Mus musculus with 8 samples.

Results

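Endothelial and angiogenesis genes of CT26 tumors are described here through 10 genes: Pecam1, Cdh5, Esam, Vcam1, Kdr, Flt1, Tek, Tie1, Vwf and Angpt2. They were chosen by name, to set vessel content beside the red blood cell signal of the same tumors, and every mouse probe with one of these gene names was taken. The array held 19 such probes, of which 13 were bright enough to test, and each of the 10 genes had a tested probe among the 21616 gene names tested. For 9 of the 10 genes that probe lay above background on all 8 arrays, and for Tek on 7.

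CT26 is a colon carcinoma line of BALB/c mice, and the tumors grew from 500000 cells placed under the skin of the flank of female mice. The 4 groups were vehicle, TP-16 alone (labelled BY001; 75 mg/kg by mouth each day), anti-PD-1 antibody alone (50 µg into the peritoneum, 2 doses a week) and the combination of both, each for 2 weeks and each with 2 samples. TP-16 is an antagonist of the prostaglandin E2 receptor EP4, and PD-1 is a receptor that restrains T cells. The samples were whole tumors, so cell types were not separated, and neither the labels nor the methods state whether a sample was 1 tumor or a pool; the age of the mice at sampling is not given either.

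Blood vessels are lined by endothelial cells, which hold together through adhesion molecules at their junctions. Vascular endothelial growth factors act on receptor tyrosine kinases of these cells to drive sprouting, and the angiopoietins act through the Tie receptors to keep vessels quiet or to loosen them. Inflamed endothelium displays adhesion molecules that leukocytes grip as they leave the blood, and vessels inside tumors are often leaky and poorly covered by pericytes.

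Levels are log2 intensities relative to the 75th percentile of the array, written below as log2 levels, and differences between groups are log2 differences of their means over 2 arrays each, with the standard error (SE) of limma's fit across all probes. That percentile was 371.1 and 378.1 intensity units under vehicle, 530.2 and 550.8 under TP-16, 398 and 414.9 under anti-PD-1, and 607.1 and 733.6 under the combination. It thus differed between the groups, and a probe of equal intensity on all arrays has its lowest log2 level under the combination. Between 51.4% and 59.7% of probes were well above background, and no array had a saturated probe among them (0 in each). The 8 arrays shared 1 slide and 1 scan, with the 4 arrays given antibody in a different row from the other 4 and the 4 arrays given TP-16 in different columns from the other 4, so that slide position and agent cannot be told apart. Replicates differed most in the vehicle group, where the SD of the difference between replicates over all probes was 0.675, against 0.525 with TP-16, 0.435 with anti-PD-1 and 0.417 in the combination group. TP-16 2 and anti-PD-1 2 stood apart in epidermis and hair follicle genes, whose summed level was 27.6 and 28.0 against 1.93 to 4.71 in the other 6 samples; the level sums the intensities over the array's percentile. Of the markers of the tumor's own epithelium, Krt18 was bright in all 8 samples, while Epcam and Vil1 were too dim to test.

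Among the junction and adhesion genes, Vcam1 had the smallest adjusted p for the combination against vehicle. It encodes an adhesion molecule that activated endothelium shows to leukocytes, and which fibroblasts and macrophages can also make. The log2 level of Vcam1 (probe at chr3:115813216-115813275, mm9) was 4.93 and 5.03 under vehicle, 5.27 and 5.33 under TP-16, 5.44 and 5.29 under anti-PD-1, and 5.70 and 5.65 under the combination. Both samples of every treated group lay above both vehicle samples, and the combination samples lay above all 6 others. Under the combination Vcam1 rose by 0.69 against vehicle (SE 0.11; 1.61-fold; adjusted p = 0.0114). Because these are bulk samples, more cells that make a transcript and more transcript per cell cannot be told apart, here and for every gene below, and the same holds for less. Without combination 2 the difference was 0.72 and the call was lost (adjusted p = 0.0702). A second tested Vcam1 probe gave 0.29 for the combination (adjusted p = 0.19). It read 0.59 and 0.47 under vehicle, 0.66 and 0.90 under TP-16, 0.82 and 0.54 under anti-PD-1, and 0.88 and 0.75 under the combination. The order of samples given above did not hold for this probe. There anti-PD-1 2 lay below vehicle 1, and TP-16 2 was the highest sample. The differences of the brighter probe were 0.32 under TP-16 (adjusted p = 0.147) and 0.38 under anti-PD-1 (adjusted p = 0.277), and neither passed. When only the groups compared were fitted, the combination call of Vcam1 was lost, as were those of Vwf and Angpt2 below (0% of all probes). With no filter on dim probes, 1 of the 10 genes was called for the combination, against 10.1% of all probes.

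Pecam1 encodes an adhesion molecule of endothelial junctions that platelets and some leukocytes also carry. Its log2 level (probe at chr11:106540864-106540923) was -1.13 and -1.46 under vehicle, -1.36 and -1.92 under TP-16, -1.39 and -1.73 under anti-PD-1, and -1.10 and -0.56 under the combination. The combination samples lay just above and well above the vehicle pair, while the single-agent groups overlapped it. The combination difference of 0.47 (SE 0.28; 1.38-fold; adjusted p = 0.246) did not pass, and it was 0.19 without combination 2 and 0.74 without combination 1.

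Cdh5 encodes VE-cadherin, the adherens junction protein of endothelium. Its log2 level (probe at chr8:106668159-106668218) was 1.82 and 1.39 under vehicle, 1.24 and 0.61 under TP-16, 1.33 and 1.14 under anti-PD-1, and 1.53 and 2.02 under the combination. Both single-agent pairs lay below the vehicle pair, and the combination pair overlapped it. The combination difference of 0.17 (SE 0.29; adjusted p = 0.683) became -0.05 without vehicle 2 and -0.08 without combination 2. Esam, an adhesion molecule of endothelial tight junctions and platelets, followed almost the same course. Its log2 level (probe at chr9:37345795-37345854) was 1.32 and 0.89 under vehicle, 0.63 and 0.01 under TP-16, 0.80 and 0.68 under anti-PD-1, and 0.97 and 1.52 under the combination. Again both single-agent pairs were low and TP-16 2 was the lowest sample. The differences were -0.78 for TP-16 (SE 0.29; adjusted p = 0.17) and 0.14 for the combination (adjusted p = 0.729), the latter -0.08 without vehicle 2 and -0.13 without combination 2. For TP-16 the difference was -0.47 without TP-16 2 and -1.09 without TP-16 1.

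**Figure D1:**
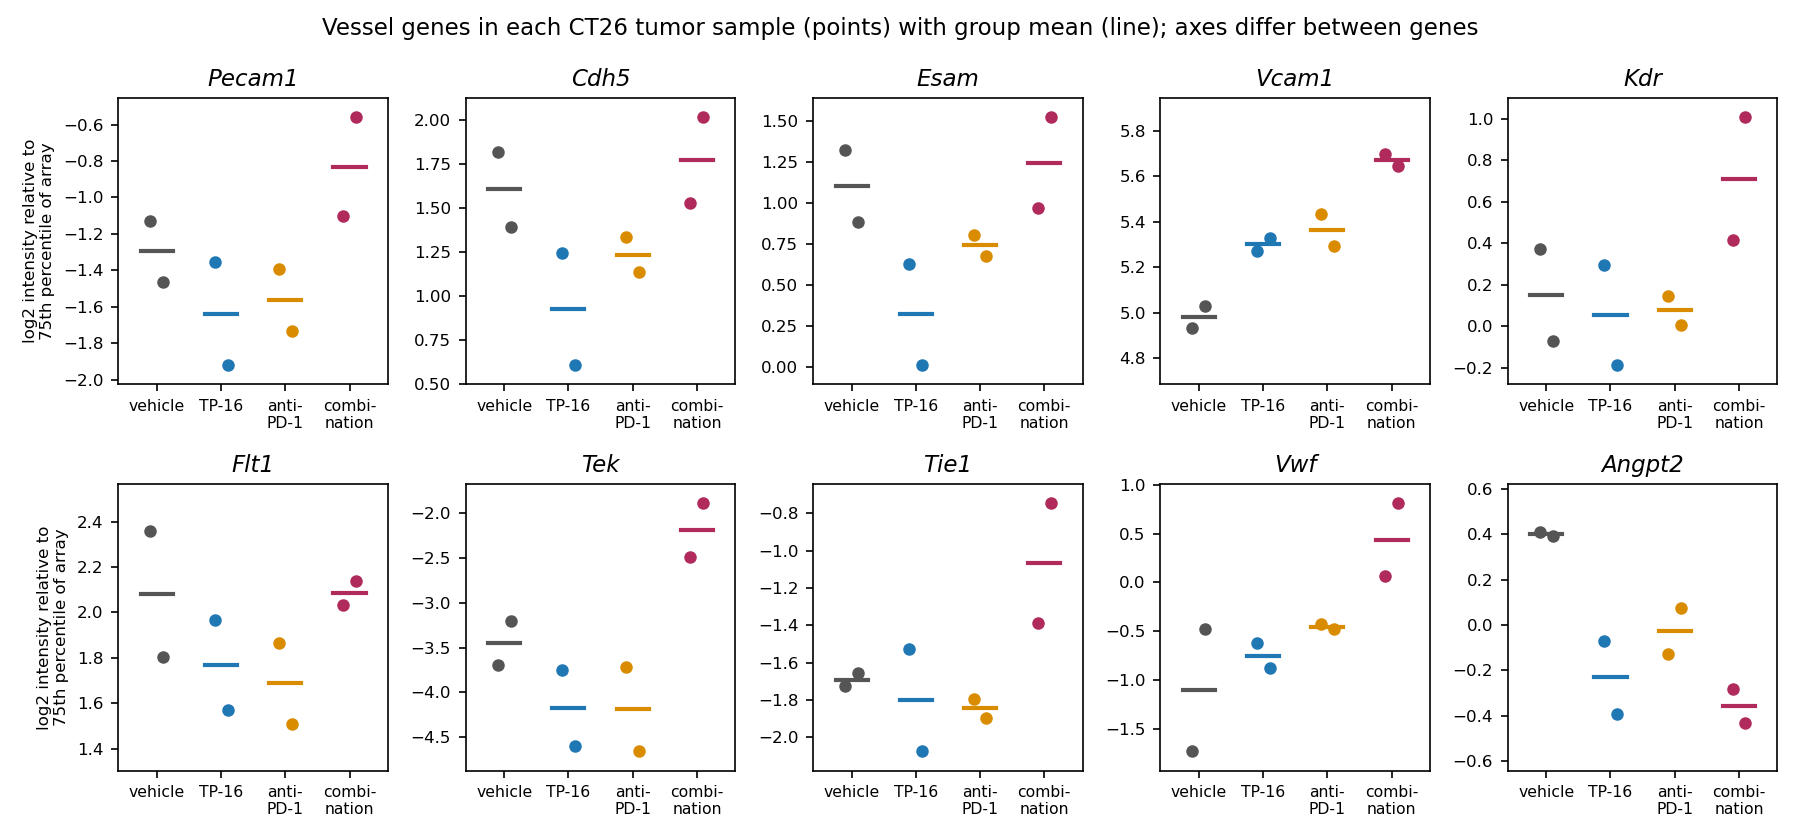
Log2 level of each of the 10 genes in the 8 samples, relative to the 75th percentile of the array, with 1 panel per gene, points for samples and a line for the mean of the 2 samples of a group. Vcam1 is above both vehicle samples in all 6 treated samples, Angpt2 is below them in all 6, and combination 2 is the highest sample for Pecam1, Cdh5, Esam, Kdr, Tek, Tie1 and Vwf.

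Of the receptors, Kdr and Flt1 bind the vascular endothelial growth factors, Kdr as the main signaling receptor and Flt1 largely as a trap for ligand. The log2 level of Kdr (probe at chr5:76329309-76329368) was 0.37 and -0.07 under vehicle, 0.30 and -0.19 under TP-16, 0.15 and 0.01 under anti-PD-1, and 0.42 and 1.01 under the combination. Combination 2 was high, combination 1 lay just above the higher vehicle sample, and the single-agent groups overlapped vehicle. The combination difference was 0.56 (SE 0.28; adjusted p = 0.167), which did not pass, and was 0.27 without combination 2 and 0.86 without combination 1. The log2 level of Flt1 (probe at chr5:148373791-148373850) was 2.36 and 1.80 under vehicle, 1.97 and 1.57 under TP-16, 1.87 and 1.51 under anti-PD-1, and 2.03 and 2.14 under the combination. All groups overlapped vehicle, whose samples were themselves far apart. The combination difference was 0.01 (adjusted p = 0.987), or -0.27 without vehicle 2, 0.29 without vehicle 1 and -0.05 without combination 2.

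The 3 tested Flt1 probes did not move together. Besides the probe above, 2 were annotated to 1 other Flt1 transcript. The first of these (chr5:148450688-148450747) read 1.13 and 0.89 under vehicle, 0.34 and 0.25 under TP-16, 0.30 and 0.46 under anti-PD-1, and 0.31 and 0.31 under the combination, on the log2 scale. Both vehicle samples lay above all 6 treated samples, which were close to one another. It fell under the combination, with a log2 difference of -0.70 (0.614-fold; adjusted p = 0.0152), and gave -0.72 for TP-16 (adjusted p = 0.0834) and -0.63 for anti-PD-1 (adjusted p = 0.234). The second probe of that transcript (chr5:148448888-148448947) gave -0.01 for the combination (adjusted p = 0.962). Before scaling to the percentile, the probe that fell read 814.2 and 701 intensity units under vehicle and 751.5 and 907.9 under the combination. Which Flt1 transcripts each probe binds was not tested.

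Tek and Tie1 form the receptor pair of the angiopoietins, with Tek as the receptor that binds them and Tie1 as its partner. The log2 level of Tek (probe at chr4:94540861-94540919) was -3.70 and -3.20 under vehicle, -3.75 and -4.60 under TP-16, -3.71 and -4.66 under anti-PD-1, and -2.49 and -1.89 under the combination. The combination pair lay above all 6 other samples, both single-agent pairs lay below vehicle, and anti-PD-1 2 was not above background. The combination difference was 1.26 (SE 0.44; 2.39-fold; adjusted p = 0.076), which failed the correction, and 0.96 without combination 2. Tek is dim on this array and its value moved with the processing, from 0.34 with normexp background correction (adjusted p = 0.17) to 1.71 with quantile normalization, where it passed (adjusted p = 0.0298). The log2 level of Tie1 (probe at chr4:118144132-118144191) was -1.73 and -1.66 under vehicle, -1.53 and -2.07 under TP-16, -1.79 and -1.90 under anti-PD-1, and -1.39 and -0.75 under the combination. Combination samples were again the highest of the 8, and anti-PD-1 samples lay below the vehicle pair. The combination difference was 0.62 (adjusted p = 0.12), which did not pass, and was 0.31 without combination 2 and 0.94 without combination 1.

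Vwf and Angpt2 are secreted by endothelium from the same storage granules. Vwf encodes von Willebrand factor, which tethers platelets and which megakaryocytes make as well. Its log2 level (probe at chr6:125636551-125636610) was -1.73 and -0.48 under vehicle, -0.62 and -0.87 under TP-16, -0.43 and -0.48 under anti-PD-1, and 0.06 and 0.81 under the combination. The combination pair lay above all 6 other samples, and vehicle 1 lay far below the remaining 7. Vwf rose under the combination by 1.54 (SE 0.44; 2.91-fold; adjusted p = 0.0453), and this call was the least steady of the 3. It was lost with quantile normalization (1.57; adjusted p = 0.0553), without vehicle 1 (0.91; adjusted p = 0.0957), without combination 1 (1.91; adjusted p = 0.0655) and without combination 2 (1.17; adjusted p = 0.216). It was also lost without any of the other groups' arrays, which leave the difference as it was (adjusted p = 0.072 without either TP-16 array and 0.0784 without either anti-PD-1 array). Without vehicle 2 the difference was 2.17 (adjusted p = 0.0252).

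Angpt2 encodes the angiopoietin that loosens vessels and is made at sprouting vessel tips. Its log2 level (probe at chr8:18690323-18690382) was 0.41 and 0.39 under vehicle, -0.07 and -0.39 under TP-16, -0.13 and 0.07 under anti-PD-1, and -0.28 and -0.43 under the combination. Both vehicle samples lay above all 6 treated samples. Under the combination Angpt2 fell, with a difference of -0.76 (SE 0.15; 0.591-fold; adjusted p = 0.018), and the call was lost without combination 2 (-0.68; adjusted p = 0.108) and without vehicle 2 (-0.77; adjusted p = 0.0517). The differences were -0.63 for TP-16 (adjusted p = 0.0947) and -0.43 for anti-PD-1 (adjusted p = 0.317), and neither passed. Before scaling to the percentile, Angpt2 read 493.2 and 496.2 intensity units under vehicle and 499.1 and 543.9 under the combination. Its fall is therefore one relative to the other probes of the array.

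In the combination against vehicle, which asks for the effect of both agents together, 3 of the 10 genes passed an adjusted p of 0.05, with Vcam1 and Vwf higher and Angpt2 lower. Of all 31912 probes tested, 32% passed (10217, of which 2904 were higher and 7313 lower; with quantile normalization 8098 passed, 4018 of them higher), so the members' share was near that of the array. At limma's unadjusted p of 0.05, 4 of the 10 passed, against 46.2% of all probes, and with a 2-fold difference as well 2 did, Tek and Vwf, against 15.3%. The methods take a 2-fold difference with the p of their own test, by which 0 of the 10 passed, against 7.07% of all probes; without the 2-fold difference their test called 2 before adjustment, against 25.8% of all probes, and 0 after it. The median difference of the 10 was 0.51, from -0.76 for Angpt2 to 1.54 for Vwf, and 9 of the 10 were above 0, beside a median of -0.20 over all probes. The combination and vehicle samples did not overlap for 7 of the 10, 6 above and 1 below, against 70.7% of all probes. Quantile normalization moved the median of all probes to -0.01. Relative to the median of all probes under the percentile scaling, the differences were 1.74 for Vwf, 1.46 for Tek, 0.89 for Vcam1, 0.83 for Tie1, 0.76 for Kdr, 0.67 for Pecam1, 0.37 for Cdh5, 0.34 for Esam, 0.21 for Flt1 and -0.56 for Angpt2. Combination 2 carried much of this: without it the members' median was 0.23 and neither a member nor any other probe passed limma's adjusted test (0), and no fit that left out 1 array called more than 2 of the 10 genes, while the share of all probes in the 7 other such fits was 18.6% (without combination 1) to 26.9% (without vehicle 1), down from 32%.

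**Figure D2:**
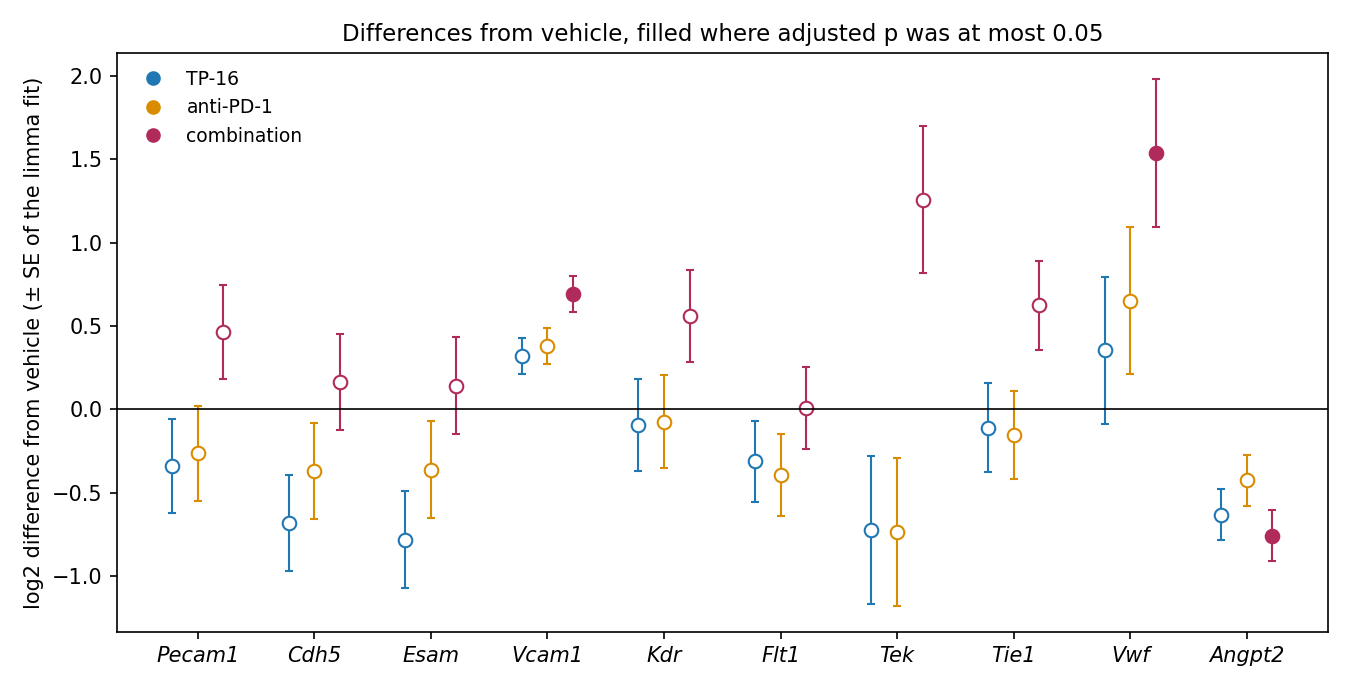
Log2 difference from vehicle for each of the 10 genes under each treatment, with bars for the standard error of the fit, n = 2 arrays per group, and filled points where the adjusted p was at most 0.05. Values for the combination run from -0.76 for Angpt2 to 1.54 for Vwf, and those for the single agents lie below 0 for 8 of the 10 genes each.

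The single agents were compared with vehicle for the effect of each alone, with the vehicle arrays shared by all 3 comparisons. Under TP-16 limma called 0 of the 10 genes at adjusted p, against 0.0533% of all probes, and 3 at an unadjusted p of 0.05 (Esam, Vcam1 and Angpt2), against 25.9%, while the methods' own test called 0 after adjustment and 1 before it, against 12.8% of all probes before it. A 2-fold difference with an unadjusted p of 0.05 was met by 0 of the 10 genes, against 6.18% of all probes by limma's p and 1.65% by that of the methods' test. The median difference of the 10 was -0.33 and 2 of the 10 lay above 0, beside -0.12 over all probes; the median was -0.57 without TP-16 1 and -0.09 without TP-16 2, the sample that stood apart in epidermis genes. Cdh5, Esam, Tek and Angpt2 had both TP-16 samples below both vehicle samples and Vcam1 had both above, 5 of the 10, against 55.3% of all probes whose groups did not overlap. With normexp background correction 2 genes passed, Vcam1 (0.41; adjusted p = 0.0368) and Angpt2 (-0.52; adjusted p = 0.0372), beside 18.6% of all probes under that correction. Under anti-PD-1 limma likewise called 0 of the 10 genes, against 0.0721% of all probes, with 2 at an unadjusted p of 0.05 (Vcam1 and Angpt2), against 14.5%, and, by the methods' own test, 0 after adjustment and 1 before it, against 10.4% of all probes before it. With a 2-fold difference besides, 0 passed, against 3.83% of all probes by limma's p and 0.949% by that of the methods' test. The median was -0.31 with 2 of the 10 above 0, beside -0.10 over all probes, and was -0.13 without vehicle 1 and -0.43 without vehicle 2. Here Cdh5, Esam, Tek, Tie1 and Angpt2 had both samples below both vehicle samples and Vcam1 and Vwf had both above, 7 of the 10, against 48.9% of all probes. Vwf met this by a margin of 0.00332 between the lower antibody sample and vehicle 2, and its difference of 0.65 was 0.03 without vehicle 1 and 1.28 without vehicle 2.

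The combination was also set against each single agent, to see what the other agent added. Against TP-16 limma called 0 of the 10 genes at adjusted p, with 0% of all probes called, and 7 of the 10 at an unadjusted p of 0.05, against 22.3% of all probes; the methods' own test gave 0 after adjustment and 1 before it, against 12.2% before it. With limma's unadjusted p and a 2-fold difference Tek (1.98; 3.95-fold; adjusted p = 0.133) and Vwf (1.18; 2.27-fold; adjusted p = 0.199) passed, 2 of the 10 against 4.34% of all probes, and by the rule of the methods 0 did, against 1.63%. The median of the 10 was 0.77, beside -0.08 over all probes, and without single arrays it ran from 0.48 without combination 2 and 0.49 without TP-16 2 to 1.05 without TP-16 1 and 1.07 without combination 1. Against anti-PD-1 limma called 0 of the 10 at adjusted p, with 0.0157% of all probes called, and 4 at an unadjusted p of 0.05, against 26.2%; the methods' own test gave 0 both ways, against 19% of all probes before adjustment. With limma's unadjusted p and a 2-fold difference Tek alone passed (1.99; 3.99-fold; adjusted p = 0.0778), 1 of the 10 against 4.27% of all probes, and by the rule of the methods 0 did, against 1.83%. As Tek was not above background in anti-PD-1 2, its size against that group, and in the departure from additivity, is not exact. The median of the 10 was 0.59, beside -0.10 over all probes, and was 0.34 without combination 2.

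Taking both groups given an agent together, the main effect of TP-16 averages its difference with and without antibody. It called 2 of the 10 genes, against 17.3% of all probes, with Vcam1 higher (0.31; adjusted p = 0.045) and Angpt2 lower (-0.48; adjusted p = 0.0371). Leaving out any 1 of the 8 arrays ended both calls (0 of the 10 each time). The share of all probes was then 17.7% without vehicle 1, 12.7% without vehicle 2, 8.84% without combination 1 and 0% in the other 5 fits. The replicate number as a block ended both calls too, with 9.95% of all probes called. At limma's unadjusted p of 0.05 the count was again 2, against 37.5% of all probes, and the methods' own test gave 1 after adjustment, against 9.27%, and 2 before it, against 33.8%. The median of the 10 was 0.23, and 0.09 without combination 2. By limma's test of this main effect, the second Vcam1 probe gave 0.20 (adjusted p = 0.237) and did not pass. A dimmer Flt1 probe (chr5:148450688-148450747) gave -0.39 (adjusted p = 0.0406), while the brightest Flt1 probe gave 0.04 (adjusted p = 0.871). For the main effect of anti-PD-1 limma called 0 of the 10, against 0.0188% of all probes, with 3 at an unadjusted p of 0.05, against 29%, and, by the methods' own test, 0 after adjustment and 1 before it, against 26.7% before it. The median of the 10 was 0.29, and 0.14 without combination 2. Vcam1 gave 0.38 (adjusted p = 0.0788) and Vwf 0.92 (adjusted p = 0.128). The departure from additivity is the combination minus both single agents plus vehicle, and limma called 0 of the 10 for it, with 0% of all probes called. At limma's unadjusted p of 0.05 it gave 4 (Pecam1, Cdh5, Esam and Tek), against 7.32% of all probes, each positive and 2-fold or more, against 3.2%. The methods' own test gave 0 after adjustment and 1 before it, against 6.61%, and 1 with a 2-fold difference, against 1.9% of all probes. Among them Tek had a departure of 2.72 (SE 0.63; adjusted p = 0.484), Esam 1.29 (adjusted p = 0.589) and Cdh5 1.22 (adjusted p = 0.605), all of which failed the correction. The median departure of the 10 genes was 0.81, beside 0.01 over all probes, and 0.56 without TP-16 2.

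The mean log2 level of the 10 genes was 0.29 and 0.26 under vehicle, 0.21 and -0.25 under TP-16, 0.21 and -0.01 under anti-PD-1, and 0.54 and 0.95 under the combination. Combination 2 was the highest sample and TP-16 2 the lowest, with the combination pair above the rest. The summed level without Vcam1, the brightest member, was 14.9 and 11.7 under vehicle, 11.5 and 8.23 under TP-16, 11.4 and 10.0 under anti-PD-1, and 13.2 and 17.4 under the combination. On that scale combination 1 lay between the vehicle samples.

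Most members moved together over the 8 arrays, which share a slide and in part a treatment. As a description, the Pearson correlation over 8 arrays was 0.995 for Cdh5 with Esam, 0.959 for Pecam1 with Kdr, 0.929 for Kdr with Tie1 and 0.917 for Tek with Tie1. Flt1 was looser, at 0.723 with Kdr and 0.579 with Tie1. Pecam1 followed the mean of the other 9 genes at 0.967, whereas Angpt2 had -0.288, and Vcam1 with Angpt2 gave -0.875. The members whose adjusted p passed were the 3 with the lowest correlation with the remaining genes, Vwf at 0.525, Vcam1 at 0.413 and Angpt2.

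The 10 genes outside the members whose log2 levels lay nearest to the mean of the centred members over the 8 arrays were Gulp1, Unc45b, Cd93, Dtx4, Zfp521, Notch3, Fam131a, Ptprb, Pde4b and Aldh1a1, with correlations of 0.986 for the first to 0.976 for the last. Cd93 is a surface protein of endothelium, Ptprb a phosphatase that acts on Tek, and Notch3 the Notch receptor of mural cells. Most of the 10, namely Gulp1, Unc45b, Dtx4, Zfp521, Fam131a, Pde4b and Aldh1a1, are in none of the vessel or tissue lists below. Cd93 read 4.23 and 4.22 under vehicle, 4.27 and 3.73 under TP-16, 4.06 and 3.89 under anti-PD-1, and 4.48 and 5.01 under the combination, as log2 levels. All 10 were highest in combination 2, as the members' mean was. The genes were chosen for following that mean, so their shared peak is not a separate result.

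Promoter sequences were at hand for 4 of the 10 genes in the RefSeq table (GRCm38.p6, 250 bases before to 50 after the start): Kdr, Flt1, Tek and Tie1, the receptors. Pecam1, Cdh5, Esam, Vcam1, Vwf and Angpt2 were not in the table. The windows are shown so that letters bound by ETS and GATA factors, families known to act in endothelium, can be seen in place. The letters searched on both strands were AGGAAG for ETS factors (CTTCCT on the other strand) and AGATAA for GATA factors (TTATCT on the other strand), and matches are in capitals. ETS letters occurred at 2 places in Flt1 and 2 in Tie1 and at 0 in Kdr and Tek, and GATA letters at 1 place in Tek and at 0 in the other 3. Of all 32851 promoters in the table, 35.4% held the ETS letters and 11.2% the GATA letters, and a match is a description of the letters only. The windows are chr5:75978406-75978705 for Kdr, chr5:147725962-147726261 for Flt1 and chr4:118489800-118490099 for Tie1, all on the minus strand, and chr4:94739039-94739338 for Tek on the plus strand, each written 5′ to 3′.
Kdr: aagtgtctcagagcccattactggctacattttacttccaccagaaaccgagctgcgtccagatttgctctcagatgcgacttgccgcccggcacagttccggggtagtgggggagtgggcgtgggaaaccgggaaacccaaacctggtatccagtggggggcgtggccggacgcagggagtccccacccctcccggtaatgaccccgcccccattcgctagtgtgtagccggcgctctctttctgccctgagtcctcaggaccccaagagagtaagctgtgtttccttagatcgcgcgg
Flt1: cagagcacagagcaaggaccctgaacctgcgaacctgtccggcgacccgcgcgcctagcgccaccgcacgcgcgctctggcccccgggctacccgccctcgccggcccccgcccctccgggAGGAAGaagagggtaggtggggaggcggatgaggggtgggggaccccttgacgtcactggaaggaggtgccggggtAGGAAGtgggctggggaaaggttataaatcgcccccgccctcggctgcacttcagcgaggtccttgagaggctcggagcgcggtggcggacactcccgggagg
Tek: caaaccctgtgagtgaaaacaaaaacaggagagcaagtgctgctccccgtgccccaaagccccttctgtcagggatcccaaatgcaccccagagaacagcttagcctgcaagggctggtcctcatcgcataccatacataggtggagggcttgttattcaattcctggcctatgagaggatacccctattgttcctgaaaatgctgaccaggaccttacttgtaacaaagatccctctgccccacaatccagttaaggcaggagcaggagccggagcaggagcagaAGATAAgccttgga
Tie1: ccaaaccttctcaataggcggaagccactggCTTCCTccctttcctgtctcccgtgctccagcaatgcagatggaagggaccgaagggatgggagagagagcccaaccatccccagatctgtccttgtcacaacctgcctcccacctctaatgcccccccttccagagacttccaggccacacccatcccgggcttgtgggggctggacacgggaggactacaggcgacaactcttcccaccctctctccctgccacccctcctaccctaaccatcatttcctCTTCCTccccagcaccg

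Growth factors, co-receptors and regulators of the same pathways were examined as a list of 18 genes, of which Angpt4 and Flt4 were too dim to test. Under the combination 5 of the 16 tested rose and 1 fell, with a median difference of 0.56, beside -0.20 over all probes. For this and every list below, 9.1% of all probes rose and 22.9% fell in the same comparison. Before adjustment 46.2% of all probes passed there by limma's p of 0.05, and 25.8% by the methods' own test. Angpt1, the angiopoietin that activates Tek, read -4.58 and -4.71 under vehicle, -3.12 and -3.91 under TP-16, -2.55 and -1.89 under anti-PD-1, and -2.42 and -2.20 under the combination, as log2 levels. It was below background in both vehicle samples and highest where antibody was given. Angpt1 was at least 3.11-fold higher under the combination (adjusted p = 0.0104). Acvrl1, an endothelial receptor of the TGF-beta family, rose by 0.95 (SE 0.15; adjusted p = 0.0113). Aplnr, the apelin receptor, gave 0.90 (adjusted p = 0.228), and Vegfa, the main growth factor for Kdr, gave 0.34 (adjusted p = 0.095). The other genes behind these counts, named after their values were seen, were Eng (0.80; adjusted p = 0.0406), Nrp1 (0.77; adjusted p = 0.0386) and Vegfd (0.69; adjusted p = 0.0281), which rose, and Pgf, a ligand of Flt1, which fell (-0.76; adjusted p = 0.0227). Leaving out either anti-PD-1 array left 2 that rose, leaving out either vehicle array left 3, the fall of Pgf was lost without vehicle 2 or combination 1, and leaving out combination 2 left 0 in this and every other list, as no probe then passed limma's adjusted test.

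Notch signaling shapes sprouts, with Dll4 as the ligand of the tip cell and Jag1 as its counterpart. Of 10 tested genes (Hey2 was too dim), 1 rose and 1 fell, and the median was -0.04, which turned to 0.27 with quantile normalization and was -0.39 without Dll1 and Heyl, which entered the test through the combination samples alone. Dll4 read -2.58 and -1.87 under vehicle, -3.03 and -3.78 under TP-16, -3.54 and -3.51 under anti-PD-1, and -3.54 and -3.23 under the combination, as log2 levels. Both vehicle samples lay above all 6 treated samples. Dll4 fell under the combination (-1.16; SE 0.33; adjusted p = 0.0428) and Jag1 rose (1.12; SE 0.20; adjusted p = 0.0142), with Jag1 levels of -1.72 and -2.06 under vehicle and -0.94 and -0.60 under the combination. Heyl, a target of Notch in mural cells, was above background in both combination samples and in 1 of the other 6, so no difference is given for it. With quantile normalization 1 of the list rose and 0 fell. The number that rose also moved when vehicle 1 was left out.

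Of 37 other genes that mark endothelium in general, Tek among them, 4 rose and 2 fell under the combination (16.2%, beside 32% of all probes), with a median of 0.19. Erg entered the test through the combination samples alone. Without it 4 of the 36 rose and 2 fell, with a median of 0.20. Shank3 (1.58; SE 0.28; adjusted p = 0.0142) and Cyyr1 (1.50; SE 0.23; adjusted p = 0.0114) gave the 2 greatest differences of the list. Plvap, which forms the diaphragms of fenestrae and caveolae, read 2.24 and 2.35 under vehicle, 2.29 and 1.86 under TP-16, 2.52 and 2.38 under anti-PD-1, and 2.80 and 3.24 under the combination, as log2 levels. Its combination pair lay above the remaining 6 samples, and Plvap rose by 0.72 (SE 0.21; adjusted p = 0.0459). Emcn, a sialomucin of capillaries and veins, gave 0.21 (adjusted p = 0.477), and Cldn5, the claudin of endothelial tight junctions, gave 0.03 (adjusted p = 0.953). The other genes behind the counts, named after their values were seen, were Adgrl4, which rose (1.16; adjusted p = 0.0348), and Gpihbp1 (-1.16; adjusted p = 0.0102) and Nos3 (-0.45; adjusted p = 0.025), which fell. Gpihbp1 carries lipoprotein lipase on capillaries, and Nos3 is the endothelial nitric oxide synthase. Leaving out either anti-PD-1 array, or vehicle 2, left 2 that rose and 1 that fell, and 1 fell without combination 1. Under TP-16 the list's median was -0.48 with 6 of 37 above 0, and under anti-PD-1 -0.31 with 8 of 37 above 0. These values include Erg, which was above background in at most 1 sample of vehicle and of each single agent. Its single-agent differences are therefore not measured.

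Adhesion molecules of activated endothelium gave 4 that rose and 1 that fell of 10 tested, Vcam1 among those that rose, with a median of -0.08; Madcam1 was too dim to test. Icam1, which binds leukocyte integrins and is also made by leukocytes and tumor cells, read 0.47 and 1.39 under vehicle, 1.88 and 1.48 under TP-16, 1.97 and 1.76 under anti-PD-1, and 2.56 and 3.22 under the combination, as log2 levels. All 6 treated samples lay above vehicle, and the combination pair lay highest. Icam1 rose by 1.96 (SE 0.37; adjusted p = 0.0158), and Ackr1, a chemokine carrier of venules, rose by 1.59 (SE 0.29; adjusted p = 0.0149). Chst4, which modifies the ligands of L-selectin, gave -1.31 (adjusted p = 0.0595). Named after their values were seen, Jam3 rose (0.86; adjusted p = 0.0435) and Glycam1 fell (-0.40; adjusted p = 0.0282), a call lost without vehicle 2, combination 1 or either anti-PD-1 array.

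Lymphatic endothelium gave 0 that passed limma's adjusted test of 4 tested (0 at an unadjusted p of 0.05, and 0 and 1 by the methods' own test), with a median of -0.88; Prox1, Flt4 and Mmrn1 were too dim. Reln, Lyve1 (-1.38; adjusted p = 0.177) and Ccl21a (-0.38; adjusted p = 0.861) were its genes with the largest differences. Reln was above background in 1 vehicle sample and in 0 of the combination samples and entered the test through anti-PD-1 alone, so no difference is given for it. The median of -0.88 includes Reln, and the gene of the list not named above, Pdpn, gave -0.19 (adjusted p = 0.341).

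Pericytes and smooth muscle, which wrap vessels, gave 2 that rose and 1 that fell of 12, with a median of 0.47. Kcnj8, a potassium channel subunit of pericytes, read 2.30 and 1.14 under vehicle and -0.14 to 0.41 in the 6 treated samples, as log2 levels, and fell under the combination (-1.79; SE 0.36; adjusted p = 0.0179). Tagln, an actin-binding protein of smooth muscle, rose by 0.85 (adjusted p = 0.0185), Rgs5 gave 0.92 (adjusted p = 0.185), and Pdgfrb, named after its value was seen, rose by 0.57 (adjusted p = 0.0251). Without vehicle 2 the list had 0 that rose and 2 that fell, and without combination 1 it had 1 and 0.

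Genes known to restrain vessel growth gave 4 that rose and 0 that fell of 10, with a median of 0.38 (0.78 with quantile normalization). Cxcl9 (3.18; SE 0.95; adjusted p = 0.0497) and Cxcl10 (1.84; SE 0.34; adjusted p = 0.0155), chemokines induced by interferon, rose, as did Timp3, an inhibitor of matrix proteases (1.43; SE 0.18; adjusted p = 0.0102). Thbs2, named after its value was seen, rose by 0.96 (adjusted p = 0.042). Without combination 1 the list had 1 that rose and 1 that fell, and 2 rose without either TP-16 array.

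Of the red blood cell genes, 7 of 10 tested fell under the combination and 0 rose, with a median of -2.12 (-1.65 and 6 that fell with quantile normalization). Those that fell were the globin genes Hba-a1, Hba-a2, Hbb-b1, Hbb-b2 and Hbb-bt, with differences close to one another, and Alas2 and Slc4a1. Klf1, 1 of the 3 that were lower but did not pass, entered the test through the combination samples alone, and without it the median of the 9 was -2.25. Their summed level was 988 and 629 under vehicle, 219 and 187 under TP-16, 302 and 317 under anti-PD-1, and 145 and 180 under the combination, with Hba-a1 the brightest. Every treated sample lay below both vehicle samples, and the combination pair lay lowest. Hba-a1 fell by 2.28 (adjusted p = 0.0102), Hbb-b1 by 2.50 (adjusted p = 0.0102) and Alas2 by 1.99 (adjusted p = 0.0114), on the log2 scale, and the 3 largest differences were those of Hbb-bt (-2.54), Hbb-b1 and Hbb-b2 (-2.48). The medians were -1.88 under TP-16 and -1.42 under the antibody alone. Limma's adjusted test called 0 of the 10 in each, against 0.0533% and 0.0721% of all probes. At limma's unadjusted p of 0.05, 8 passed in each, against 25.9% and 14.5% of all probes. By the methods' own test 0 passed after adjustment, and 6 and 1 before it, against 12.8% and 10.4% of all probes. Each 8 includes Klf1, which was above background in at most 1 sample of vehicle and of each single agent. Its single-agent tests are therefore not read as a fall. Hbb-bs, Ahsp, Epb42, Kel and Rhag were not tested. For Cdh5, Esam, Tek and Angpt2 the single-agent samples were below vehicle as the red cell genes were, and under the combination Angpt2 alone of the 10 members was. The part of red cell RNA in the vessel values was not tested.

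**Figure D3:**
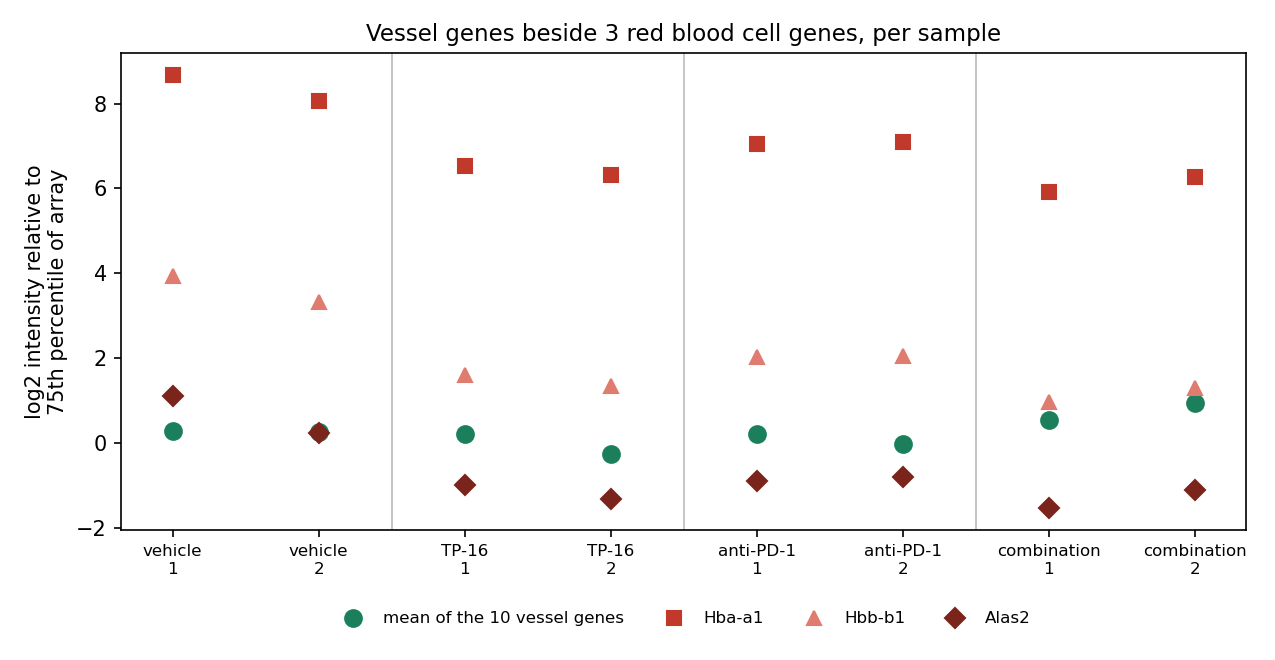
Mean log2 level of the 10 vessel genes and log2 levels of Hba-a1, Hbb-b1 and Alas2, on the vertical axis, in each of the 8 samples along the horizontal axis, relative to the 75th percentile of the array. The red cell genes are highest in the vehicle samples, and the mean of the vessel genes is highest in the combination samples, at 0.54 and 0.95.

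Platelets carry Vwf, Pecam1 and Esam too, so their genes are given beside these. Of 6 tested, 2 fell, with a median of -0.71 (-0.32 with quantile normalization, where 0 fell; -0.91 without Gp1ba and Itga2b, which entered the test through the combination samples alone). Their summed level was 67.4 and 42.3 under vehicle, 22.5 and 26.1 under TP-16, 39.3 and 38.7 under anti-PD-1, and 25.2 and 27.9 under the combination, with Pf4 the brightest. Pf4 (-1.03; adjusted p = 0.0254) and Ppbp (-1.22; adjusted p = 0.0385), both chemokines of platelet granules, fell. Gp1ba was above background in both combination samples and in 0 of the other 6, and at least 1.06-fold higher than under vehicle; its test is not counted, since it entered it through the group where it is high. Gp1bb, Gp9, Gp5 and Gp6 were too dim to test. By limma's adjusted test 0 fell without combination 1 or either anti-PD-1 array, and 1 fell without either TP-16 array. Pf4 and Ppbp were lower under the combination where Vwf was higher, and the part of platelets in the Vwf values was not tested.

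Leukocyte and fibroblast genes rose under the combination along with Vcam1 and Vwf. General leukocyte markers gave 5 that rose of 6, with a median of 1.27 and a summed level of 42.7 and 61.7 under vehicle, 81.4 and 75.1 under TP-16, 72.1 and 63.0 under anti-PD-1, and 98.7 and 132 under the combination (Coro1a the brightest). Vehicle samples were the lowest and combination samples the highest. Itgb2 (2.05; adjusted p = 0.0103), Ptprc (1.88; adjusted p = 0.0116) and Laptm5 (1.29; adjusted p = 0.0196) led them. Macrophage and monocyte genes gave 6 that rose of 10, with a median of 0.97 and a summed level of 206 and 299.9 under vehicle, 363 and 329 under TP-16, 431 and 385 under anti-PD-1, and 506 and 618 under the combination (Ly6c2 the brightest). Ly6c2 (2.11; adjusted p = 0.0313), Adgre1 (2.06; adjusted p = 0.014) and Cd68 (1.13; adjusted p = 0.0187) rose. In this list 8 of the 10 genes were above 0. Named after their values were seen, Itgam gave -0.73 (adjusted p = 0.531) and Mrc1 gave -0.21 (adjusted p = 0.585). Without vehicle 1 the count for macrophages was 2, and it was 3 without either anti-PD-1 array or either TP-16 array and 4 without combination 1.

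T and NK cell genes gave 5 that rose of 11, with a median of 1.81 and a summed level of 9.37 and 30.1 under vehicle, 30.6 and 26.6 under TP-16, 43.7 and 37.5 under anti-PD-1, and 51.3 and 76.9 under the combination (Gzmb the brightest; Trac had no tested probe). Vehicle 1 stood far below the other 7 samples. Ifng (4.06; adjusted p = 0.0276) and Cd8a (adjusted p = 0.0477) rose, with no size given for Cd8a since vehicle 1 was not above background for it, and Cd8b1 gave 3.29 (adjusted p = 0.0524). The count was 10 without vehicle 2, 2 without either TP-16 array, 1 without either anti-PD-1 array and 0 without combination 1. Fibroblast genes gave 5 that rose of 8, with a median of 1.09 and a summed level of 294 and 259 under vehicle, 340 and 292 under TP-16, 384 and 338 under anti-PD-1, and 487 and 521 under the combination (Col1a2 the brightest). Col1a1 (1.95; adjusted p = 0.0153) and Col3a1 (1.30; adjusted p = 0.0417) rose and Fap gave 1.40 (adjusted p = 0.0718). The count for fibroblasts was 3 without vehicle 1 or either anti-PD-1 array. The part of leukocytes and fibroblasts in the Vcam1 and Icam1 values was not tested.

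The remaining lists describe other tissue in the samples. Genes of the tumor's epithelium gave 1 that fell of the 5 tested besides Cdx2, with a median of -1.06 (-1.23 with Cdx2) and a summed level of 13.5 and 9.42 under vehicle, 7.08 and 9.02 under TP-16, 8.21 and 7.56 under anti-PD-1, and 5.24 and 3.51 under the combination (Krt18 the brightest). Krt18, a keratin of simple epithelium, fell (-1.39; adjusted p = 0.0196), and Krt8 gave -2.68 (adjusted p = 0.0525). Cdh1, named after its value was seen, went the other way at 0.82 (adjusted p = 0.22). Krt19 entered the test through the anti-PD-1 samples alone, so no difference is given for it, though the medians include it. Cdx2, an intestinal transcription factor, was above background in both vehicle samples and in 0 of the combination samples, where it was at least 6.90-fold lower than under vehicle; it entered the test through vehicle alone, so its test is not counted. Without either TP-16 array 3 of the 5 fell. Skeletal muscle gave 0 of 10 by limma's adjusted test, 2 at an unadjusted p of 0.05 and 0 by the methods' own test (median 0.49; Myh4 1.65, adjusted p = 0.16; Actn3 1.49, adjusted p = 0.0701; Myh1 1.27, adjusted p = 0.0571). Without vehicle 2 or either anti-PD-1 array 1 muscle gene rose. Adipose tissue gave 0 of 7 by limma's adjusted test, 0 at an unadjusted p of 0.05 and 0 by the methods' own test, with a median of 0.06 that turned to -0.28 with normexp background correction (Cfd 0.64 and Retn 0.33; Plin1 was above background in 1 sample of either group, so no size is given). Without vehicle 1, 2 adipose genes fell, and without vehicle 2, 3 rose. Epidermis and hair follicle gave 0 of 3 by limma's adjusted test, 0 at an unadjusted p of 0.05 and, by the methods' own test, 0 after adjustment and 1 before it, with a median of -1.61 (Krt5 -1.61 and Krt10 -0.79; Krt14 was above background in 1 of the combination samples, so no size is given).

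Hypoxia induces Vegfa and Angpt2, and its response genes gave 2 that fell of 10, with a median of 0.17 (0.45 with quantile normalization). Ldha (-0.76; adjusted p = 0.0131) and Pgk1 (-0.57; adjusted p = 0.0242), enzymes of glycolysis, fell under the percentile scaling, but with quantile normalization both turned above 0 (0.02 and 0.37) and 2 of the list rose instead. By the percentile scaling 1 fell without either vehicle array or either anti-PD-1 array. Egln3, an oxygen-sensing hydroxylase, gave 0.53 (adjusted p = 0.195). Genes of cell division gave 3 that fell of 8, with a median of -0.23 that turned to 0.06 with quantile normalization, where 2 rose and 1 fell; 1 fell without vehicle 1 and 0 without vehicle 2. Ccnb1 (-0.55; adjusted p = 0.023) and Birc5 (-0.52; adjusted p = 0.0172) fell under the percentile scaling, and with quantile normalization Birc5 turned to 0.00 and Ccnb1 gave -0.38 (adjusted p = 0.0639); Cdk1 gave -0.46 (adjusted p = 0.104).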

How the data were processed

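Arrays of the 1-colour Agilent kind measured RNA of CT26 tumors in 4 groups of 2 samples. The authors deposited the scanner output, whose spot intensity was background-subtracted and detrended by Agilent Feature Extraction 10.7.1.1, and a table of log2 values, attributed to GeneSpring with no normalization named. The labels give column kits for RNA extraction and the methods TRIzol. Groups came from the labels, and strain, sex and doses from the labels and methods.

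From the intensities, spots marked as outliers were dropped, which removed 38 of 56605 mouse probes, and spots of a probe were averaged. Log2 intensity minus the array's 75th percentile was tested for 31912 probes, those that stood well above background in both samples of some group; 26683 did so on all 8 arrays, and the number of arrays limits the precision. All arrays entered 1 fit in limma 3.58.1 (R 4.3.3, with the package data.table, version 1.17.8), with 1 mean per group and 4 residual degrees of freedom, and p was adjusted over all tested probes (Benjamini-Hochberg). Where several probes of a gene were tested, the brightest is given. Positions are those of the array annotation (mm9). A fold against a group below background on every array was taken against the background level and written "at least". Figures used Python 3.11.15 and matplotlib 3.10.9.

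The members and lists were chosen with earlier results of these data known. The lists hold vessel growth factors and co-receptors, Notch signaling, other endothelial genes, adhesion molecules, lymphatic endothelium, pericytes and smooth muscle, antiangiogenic genes, red blood cells, platelets, leukocytes, macrophages and monocytes, T and NK cells, fibroblasts, skeletal muscle, adipose tissue, epidermis and hair follicle, tumor epithelium, hypoxia and cell division. Some genes of these lists are not reported here and were left out of the lists' counts. Named from each are up to 3 genes with the largest difference for the combination, plus Hba-a1, Hbb-b1, Alas2, Vegfa, Dll4, Emcn, Plvap and Cldn5, and the 10 genes nearest to the members in pattern. Alternatives were quantile normalization, the median of tested probes, normexp background correction (offset 50), no filter, a filter on all 8 arrays, 1 probe for each gene, the authors' log2 values, only the groups compared, trended and robust moderation, the methods' own test, a replicate block and leaving out each array. The calculations were tested on simulated data.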

Additional observations from a re-analysis of the deposited data

How the results depend on the processing

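With 2 arrays a group, leaving out 1 array leaves a lone sample that is assumed to vary like the other groups, and the slide or scan as a block was not run because all arrays share 1 slide and 1 scan. The authors' log2 values have the same distribution on every array, as quantile normalization gives (sorted values differed by at most 0.00115), so these 2 alternatives are nearly 1 and the same. The scalings by quantile and by the median, the authors' log2 values, 1 probe per gene and probes above background on all arrays gave the same number of called members in all 8 comparisons, though not always the same genes. With normexp background correction 2 members were called for TP-16 against vehicle (18.6% of all probes), 2 for the combination against anti-PD-1 (22.2%) and 1 for the main effect of anti-PD-1 (7.34%). Trended and robust moderation called 1 for each of the latter pair (8.57% and 9.07% of all probes). For the combination against vehicle, 1 was called with no filter on dim probes (10.1% of all probes), and 0 with only the groups compared or by the methods' own test (0% each). For the main effect of TP-16, 1 was called with no filter (21.1%), 1 by the methods' own test (9.27%) and 0 with the replicate block (9.95%); over all probes, deviations of replicates of the same number from their group means correlated between groups at -0.193 to 0.29, and whether they share more than a number was not tested. The cause of these changes was not tested, except that fitting only the groups compared leaves fewer arrays and no filter tests more probes.

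Over the fits that left out 1 array, the number called ran from 0 to 2 for the combination against vehicle (0% to 26.9% of all probes) and was 0 throughout for the main effect of TP-16 (0% to 17.7%). The members' median ran from -0.57 to -0.09 for TP-16 and -0.43 to -0.13 for anti-PD-1 against vehicle, 0.09 to 0.32 and 0.14 to 0.41 for their main effects, 0.23 to 0.70 for the combination against vehicle, 0.48 to 1.07 against TP-16, 0.34 to 0.86 against anti-PD-1, and 0.56 to 1.12 for the departure from additivity. Signs turned for TP-16 in Kdr (-0.34 to 0.15), Tie1 (-0.38 to 0.17) and Vwf (-0.27 to 0.98), for anti-PD-1 in Kdr (-0.30 to 0.15), and for the combination in Cdh5 (-0.08 to 0.41), Esam (-0.13 to 0.42) and Flt1 (-0.27 to 0.29). Tie1 under TP-16 also turned to 0.051 with quantile normalization and with the authors' log2 values. The list medians under the scalings were added after seeing the data. Tek, at or below background on 1 array, is the member most limited by its signal.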

Other observations

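Mcam, a surface protein of endothelium and pericytes, varied widely without following the groups. Its log2 level was 3.67 and 6.25 under vehicle, 5.07 and 6.19 under TP-16, 4.76 and 3.93 under anti-PD-1, and 4.83 and 5.97 under the combination. Its range was 2.58, and Arhgef15 and Nrp2 each had a range of 2.61. The brightest Nrp2 probe had this range, while its other probes had ranges of 0.52 and 1.61. Of all tested probes, 13.8% had a range of 2 or more. These genes were chosen after their values were seen.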
